A study of Mus musculus with 28 samples.

Results

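The interleukin 6 (IL-6) family was followed here as 10 genes through the postoperative course of an arteriovenous fistula (AVF) between the carotid artery and jugular vein of the mouse: the ligands *Il6*, *Il11*, *Lif* and *Osm*, the receptor chains *Osmr*, *Il6ra*, *Il6st*, *Lifr* and *Il11ra1*, and the feedback inhibitor *Socs3*. The members were chosen by symbol, and all 10 were found among the 56980 genes of the bulk RNA-seq count table and among the 32285 genes of each single-cell matrix. The C57BL/6 mice, of both sexes, had first lost kidney mass by 5/6 nephrectomy, the controls included, and the AVF was a jugular vein sewn end-to-side onto a carotid artery. Bulk libraries were made from whole ground vessels: 7 contralateral jugular veins (5 female, 2 male), 8 early AVFs labelled day 3 (3 female, 5 male), 5 mid AVFs labelled day 10 (3 female, 2 male) and 5 late AVFs labelled day 21 (3 female, 2 male). These days are labels. The paper reports the harvest days of each bulk AVF group with a spread around the mean, the widest in early AVFs. Single-cell libraries, 1 each for contralateral veins, early AVFs and late AVFs, were each made from a pool of 10 vessels of both sexes, digested by enzymes, and their AVFs were collected somewhat later than the bulk AVFs of the same name. The contralateral veins of operated animals are the only controls, and no unoperated vein was analysed here.

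The cytokines of this family signal through receptor complexes that share gp130, the protein made from *Il6st*. *Il6ra* and *Il11ra1* encode the chains that bind IL-6 and interleukin 11 before gp130 is recruited, while *Lifr* and *Osmr* encode signalling chains that pair with gp130 for leukemia inhibitory factor and oncostatin M. The complexes activate Janus kinases and STAT3, which turns on *Socs3*, whose product binds gp130 and dampens the signal; in injured tissue the family is known for acute-phase responses, leukocyte recruitment and fibroblast activation.

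Bulk libraries held between 20254173 and 67457501 counts. The contralateral veins were the least alike, with a median Spearman correlation between libraries of 0.68, against 0.87, 0.96 and 0.95 in the 3 AVF groups by day. Contralateral libraries 28, 31, 34 and 632 had no count in 13.5% to 22.5% of the tested genes, and the other 3 in 2.86% to 7.70%. Defining markers of vein wall cells were present in every group, but 5 of 8 endothelial and 6 of 8 smooth muscle markers fell from contralateral veins to early AVFs, while 7 of 9 monocyte/macrophage, 7 of 7 tested neutrophil and 5 of 6 skeletal muscle markers were higher. In whole-vessel RNA, fewer cells of a type and less RNA per cell cannot be told apart. Of 26438 single-cell barcodes, 16893 passed the filters, with a median of 2751 unique molecular identifiers (UMIs) per cell in contralateral veins, 8951 in early and 15425 in late AVFs; 19, 14 and 16 barcodes were shared between pairs of libraries.

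The sequences just before the transcription start are shown for the 4 inducible members whose windows held a match to the motif of AP-1, a stress-responsive factor (TGANTCA), or of STAT proteins (TTCNNNGAA); both motifs read the same on either strand, so each match counts for both. They are RefSeq promoters on GRCm38.p6, printed 5′ to 3′ on the gene's strand with the matching letters in capitals, and shortened where the annotation places an exon. *Il6* lies on the plus strand (chr5:30013114-30019981) and its printed window at chr5:30012864-30013113. The *Il11* window belongs to the second annotated start, at chr7:4778142-4778391 on the minus strand, and that of the first start held neither motif. The *Lif* window is at chr11:4257318-4257556 on the plus strand and the *Socs3* window at chr11:117969452-117969616 on the minus strand.
Il6: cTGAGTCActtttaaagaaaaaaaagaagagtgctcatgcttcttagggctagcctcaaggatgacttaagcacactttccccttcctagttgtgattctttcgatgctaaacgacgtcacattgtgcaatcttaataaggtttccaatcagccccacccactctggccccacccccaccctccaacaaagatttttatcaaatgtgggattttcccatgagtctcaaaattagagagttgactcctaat
Il11: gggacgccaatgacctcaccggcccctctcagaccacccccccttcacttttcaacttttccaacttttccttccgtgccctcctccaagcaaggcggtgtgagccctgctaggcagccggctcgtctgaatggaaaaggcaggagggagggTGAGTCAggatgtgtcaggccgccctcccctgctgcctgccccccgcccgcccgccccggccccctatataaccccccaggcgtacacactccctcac
Lif: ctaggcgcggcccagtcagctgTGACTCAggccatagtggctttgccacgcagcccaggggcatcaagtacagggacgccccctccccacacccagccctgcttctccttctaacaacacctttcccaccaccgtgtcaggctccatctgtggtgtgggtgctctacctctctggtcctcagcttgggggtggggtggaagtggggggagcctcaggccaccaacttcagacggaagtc
Socs3: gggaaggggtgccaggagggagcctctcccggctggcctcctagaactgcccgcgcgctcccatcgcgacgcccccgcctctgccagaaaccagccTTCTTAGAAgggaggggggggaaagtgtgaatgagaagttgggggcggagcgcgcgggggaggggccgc
The AP-1 letters began 249 bases before the start of *Il6*, 98 before that of *Il11* and 228 before that of *Lif*, and the STAT letters began 154 bases before the start of *Socs3*. Distances run from the RefSeq start of each window. The printed *Lif* and *Socs3* stretches end 12 and 86 bases before it. GENCODE vM21 places the *Lif* start further upstream and the *Socs3* window within the gene (chr11:117966079-117970047). Of 32851 promoter windows of 250 bases, 6.75% held the AP-1 motif and 7.02% the STAT motif. The windows of the 5 receptor genes held neither, which says only that these letters are not there. A match is a description of the letters and not a measured binding site. *Osm* was not matched to a promoter entry; its gene (chr11:4236420-4241026) lies upstream of *Lif* (chr11:4257557-4272514) on the same strand.

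Of the 10 members, 8 passed the filter of a mean normalized count of at least 100 and entered the test; *Il11* (mean 82.0) and *Lif* (mean 83.6) did not, and their tests come from a fit with a weaker filter. Bulk levels are given in CPM, a gene's scaled count relative to the total of its library, and a call means an adjusted p under 0.01 in edgeR's quasi-likelihood test together with at least a 2-fold difference. In early AVFs 3 members were called against contralateral veins, *Osm* higher and *Il6st* and *Lifr* lower, where 12.6% of all 12673 tested genes were called, 6.17% higher and 6.45% lower. In mid AVFs 2 were called, *Osm* and *Lifr*, against a background of 6.05% (2.74% higher and 3.31% lower), and in late AVFs only *Lifr*, against 5.33% (2.49% higher and 2.85% lower). Between late and early AVFs *Il6st* and *Il11ra1* were called higher, against 3.01% of all genes (0.726% higher). Between mid and early AVFs no member was called by edgeR, where 0.00789% of genes were, although *Il6st* and *Il11ra1* had an unadjusted p under 0.05 and DESeq2, which called 474 of 12673 genes there, called both; between late and mid AVFs no member was called by either tool and none had an unadjusted p under 0.05. The 3 comparisons with contralateral veins use the same 7 control libraries and are given side by side, not as repeats of each other.

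**Figure D1:**
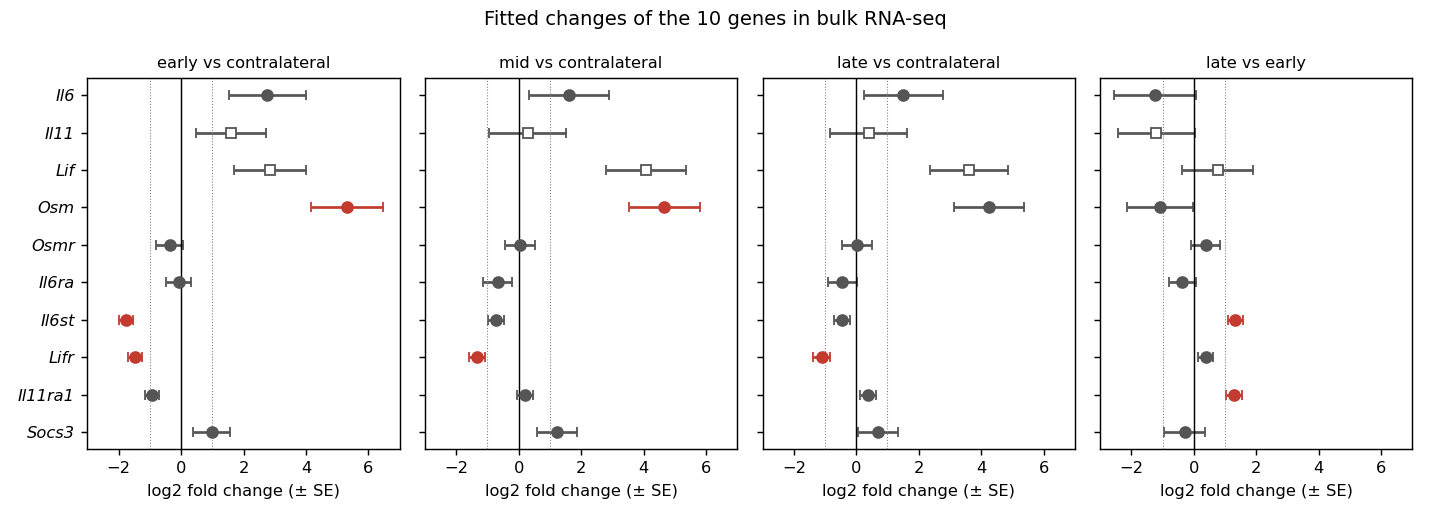
Log2 fold change of each member in early, mid and late AVFs against contralateral veins and in late against early AVFs. Bars are the standard error, and red points passed the call (adjusted p under 0.01 and at least 2-fold). Open squares are *Il11* and *Lif* from the fit with the weaker filter, and dotted lines mark a 2-fold difference. *Osm* lies far above 0 against contralateral veins with wide bars, while *Il6st* and *Lifr* lie below 0 with narrow ones.

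*Osm*, the oncostatin M gene, was all but undetected in contralateral veins and present in every AVF. Its contralateral level was 0 CPM in 5 of 7 veins, 0.0690 CPM in library 633 and 1.51 CPM in library 35; at this depth a count of 0 allows up to 0.103 to 0.187 CPM in a contralateral library, for counting error only, and 4 of the 5 veins at 0 (28, 31, 34 and 632) are those with most tested genes at 0. Early AVFs ranged from 3.99 to 17.0 CPM with a median of 7.88. The 5 mid AVFs had 5.82, 3.70, 3.35, 10.5 and 6.38 CPM, and the 5 late AVFs 3.17, 7.20, 3.06, 4.90 and 3.79 CPM. Every AVF of every stage was therefore above every contralateral vein; all AVFs lay above all veins in 4.47%, 7.32% and 6.25% of tested genes at the early, mid and late stages. The log2 fold change was 5.32 ± 1.14 (SE) in early AVFs (adjusted p = 0.0012, edgeR), 4.67 ± 1.15 in mid AVFs (adjusted p = 0.00707, edgeR) and 4.24 ± 1.13 in late AVFs (adjusted p = 0.0137, edgeR), the last outside the call.

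The stages of the AVF did not differ from each other for *Osm* beyond the spread (adjusted p = 0.819 for late against early, edgeR), so the falling means of 9.32 ± 4.53, 5.95 ± 2.86 and 4.43 ± 1.72 CPM (SD, n = 8, 5 and 5) are an order without a tested difference. The early call was lost when only the groups compared were fitted (adjusted p = 0.0273, edgeR) and in female mice alone (adjusted p = 0.101, edgeR), fits that called 665 and 368 genes in place of 1599. The mid call was lost in 8 of 25 fits that left out a library: contralateral 633 (adjusted p = 0.012), early 2 (0.0103), each of mid 9, 12, 13, 14 and 15 (0.0134, 0.0111, 0.0104, 0.0202 and 0.0148) and late 17 (0.01). Without the 4 contralateral libraries with most genes at 0, a choice made after seeing the data, the log2 differences were 4.15, 3.50 and 3.08 at the 3 stages (adjusted p = 0.00322, 0.0144 and 0.0277, edgeR), and only the early one was called. Contralateral library 35 set the size of the difference: without it, when the veins held 2 *Osm* counts in all, the fitted log2 differences were 9.00, 8.38 and 7.96 at the 3 stages (adjusted p = 1.58e-07, 1.03e-06 and 2.82e-06, edgeR), and the late one was called. Neutrophil markers, summed, moved with *Osm*, from 0.157–108 CPM in contralateral veins to 226–4505 CPM in early AVFs, 122–348 CPM in mid and 103–233 CPM in late AVFs, with 1 marker, *Ly6g*, at 0 in every contralateral vein; monocyte/macrophage markers went from 1939–7547 CPM to 11260–34727, 10851–15001 and 7308–15410 CPM, the late range overlapping with that of veins. Their part in the *Osm* difference was not tested in the bulk data.

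*Il6*, which encodes the cytokine that gave the family its name, had its highest values in early AVFs but did not pass the test against contralateral veins. It had no count in 5 contralateral veins, 1.03 CPM in library 633 and 9.85 CPM in library 31. In early AVFs it ranged from 1.90 to 25.2 CPM with a median of 7.61, and libraries 5 and 6, at 23.9 and 25.2 CPM, stood above the other 6, whose highest was 8.54. These 2 libraries also had the highest summed platelet markers (9369 and 12695 CPM, the others at most 4108) and neutrophil markers (3350 and 4505 CPM), low fibroblast markers (10829 and 5597 CPM), and the most tested genes at 0 among early AVFs (2.79% and 4.70%). In mid AVFs it was 3.80, 4.76, 4.40, 6.33 and 4.57 CPM, and in late AVFs 2.59, 5.71, 4.59, 3.97 and 5.28 CPM. The overlap between veins and AVFs rested on contralateral library 31, which lay above all but 2 of the early AVFs and above every mid and late AVF.

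The log2 fold change of *Il6* was 2.76 ± 1.23 in early AVFs (adjusted p = 0.11, edgeR), 1.61 ± 1.28 in mid AVFs (adjusted p = 0.467, edgeR) and 1.51 ± 1.27 in late AVFs (adjusted p = 0.506, edgeR). Without contralateral library 31, which had no count in 17.5% of tested genes, the early difference became 5.88 (adjusted p = 0.000898, edgeR) and the mid difference 4.73 (adjusted p = 0.00844, edgeR), while the late difference of 4.62 was not called (adjusted p = 0.0104, edgeR). With all 4 such contralateral libraries left out, a choice made after seeing the data, the early difference was 4.93 (adjusted p = 0.00344, edgeR) and the mid and late ones 3.78 and 3.67, not called (adjusted p = 0.0219 and 0.0267, edgeR). Without early libraries 5 and 6 the early difference was 1.93 (adjusted p = 0.332, edgeR). The part of platelet or neutrophil content in the *Il6* values was not tested.

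*Lif*, which encodes leukemia inhibitory factor, was highest in mid AVFs. It was at 0 in 6 of 7 contralateral veins, among them the 4 with most tested genes at 0, and at 2.48 CPM in library 633. Early AVFs ranged from 1.25 to 5.16 CPM with a median of 2.55, mid AVFs had 5.89, 5.94, 7.61, 5.14 and 5.71 CPM, and late AVFs 3.33, 4.70, 4.29, 5.80 and 3.68 CPM. All mid and late AVFs thus exceeded all contralateral veins, as 14.4% and 12.9% of the 20076 genes of a weaker filter did (4.64% at the early stage, where *Lif* overlapped), and the mid AVFs exceeded all early AVFs but library 10. In the fit with that filter, which called 18.9%, 14.1% and 13.4% of these genes in early, mid and late AVFs, the log2 fold change of *Lif* was 2.83 ± 1.15 (adjusted p = 0.0659, edgeR), 4.08 ± 1.27 (adjusted p = 0.0206, edgeR) and 3.60 ± 1.25 (adjusted p = 0.0393, edgeR), none of them called. Without library 633 no contralateral vein held a *Lif* count, so that no fold or test is given for the other 6. Without the 4 contralateral libraries with most genes at 0 the differences were 1.63, 2.88 and 2.40 (adjusted p = 0.226, 0.0687 and 0.121, edgeR).

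*Il11*, the interleukin 11 gene, ranged from 0 to 7.93 CPM in contralateral veins, with 4 of 7 at 0, and from 1.24 to 15.6 CPM in early AVFs. Mid AVFs reached at most 3.18 CPM and late AVFs at most 3.13 CPM, all within the contralateral range. The early difference was 1.59 ± 1.13 on the log2 scale (adjusted p = 0.315, edgeR, weaker filter), and it became 3.04 (adjusted p = 0.0488, edgeR) without contralateral library 28, the highest of the veins. The spread among early AVFs, 5.44 ± 4.85 CPM (SD, n = 8), was of the size of their mean.

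**Figure D2:**
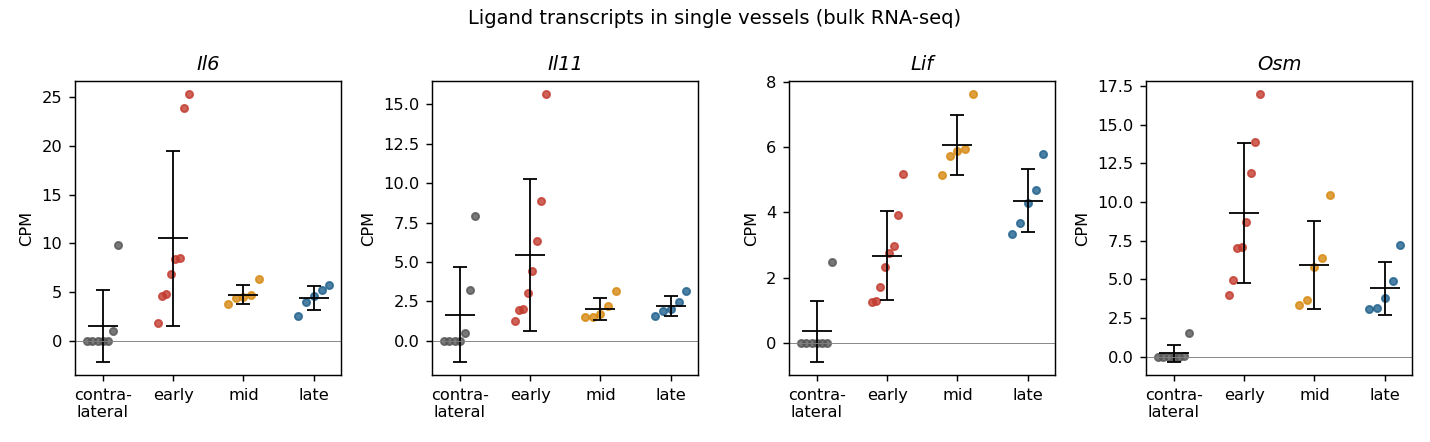
CPM of the 4 ligands in each bulk library by group, from 0; points are libraries and the bar is the mean ± SD. *Osm* and *Lif* are near 0 in contralateral veins apart from libraries 35 (1.51 CPM) and 633 (2.48 CPM), and contralateral library 31 (9.85 CPM) carries nearly all of the *Il6* seen in veins.

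The shared receptor chain *Il6st*, which encodes gp130, was lower in every early AVF than in any contralateral vein and returned part of the way later. Contralateral veins ranged from 419 to 963 CPM with a median of 747, and early AVFs from 133 to 376 CPM with a median of 207. Mid AVFs had 421, 357, 517, 447 and 559 CPM, and late AVFs 545, 821, 492, 396 and 548 CPM. Early AVFs did not overlap with contralateral or late libraries, while early library 4, at 376 CPM, overlapped with the lowest mid AVF. All early AVFs lay below all contralateral veins in 2.34% of tested genes.

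The early difference of *Il6st* was −1.77 ± 0.23 on the log2 scale (adjusted p = 2.05e-06, edgeR), and it was called in all 25 fits that left out a library and in female mice alone (−1.96, adjusted p = 0.00305, edgeR). In mid AVFs the difference from contralateral veins was −0.73 ± 0.26 (adjusted p = 0.0624, edgeR) and in late AVFs −0.45 ± 0.26 (adjusted p = 0.288, edgeR), neither called. Late AVFs were higher than early ones by 1.32 ± 0.24 (adjusted p = 0.00241, edgeR), and mid AVFs by 1.04 ± 0.24 (adjusted p = 0.0154, edgeR), which was outside the call. The late-to-early call was lost without late library 16 (adjusted p = 0.0123), 17 (0.0151) or 24 (0.0106), at log2 differences of 1.35, 1.13 and 1.34, in fits that called 35, 34 and 32 genes in place of 381. The mid-to-early difference was called without early library 4 (1.19, adjusted p = 0.00554, edgeR), as were 236 genes in place of 1.

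*Lifr*, the receptor chain for leukemia inhibitory factor, was lower at all 3 stages than in contralateral veins. It ranged from 157 to 436 CPM in contralateral veins (median 213) and from 44.3 to 122 CPM in early AVFs (median 92.9). Mid AVFs had 88.1, 94.5, 115, 86.6 and 100.1 CPM, and late AVFs 121, 109, 104, 109.8 and 126 CPM. No AVF of any stage reached the lowest contralateral vein, while early AVFs overlapped with both later stages (late against early 0.38 ± 0.24, adjusted p = 0.555, edgeR); all AVFs lay below all veins in 4.69% of tested genes at the mid and 4.25% at the late stage. The log2 fold change was −1.49 ± 0.22 at the early stage (adjusted p = 1.82e-05, edgeR), −1.35 ± 0.26 at the mid stage (adjusted p = 0.000832, edgeR) and −1.11 ± 0.26 at the late stage (adjusted p = 0.00508, edgeR).

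The late call of *Lifr* was lost in 7 of 25 fits: without contralateral 35 (−0.97, adjusted p = 0.00914, under 2-fold), without early 5 (adjusted p = 0.0119), and without late 16, 17, 19, 23 or 24 (0.0104, 0.0221, 0.0183, 0.0124 and 0.0132). In female mice alone no stage passed (adjusted p = 0.0305, 0.0972 and 0.149, edgeR), with log2 differences of −1.60, −1.29 and −1.13, in a fit that called 368, 225 and 204 genes at the 3 stages. Summed markers of 3 wall cell types moved with *Il6st* and *Lifr* in the early comparison. Endothelial markers went from 2234–3711 CPM in contralateral veins to 317–609 CPM in early, 485–722 CPM in mid and 589–807 CPM in late AVFs. Smooth muscle and pericyte markers went from 9760–21318 CPM to 1070–2646, 2015–2483 and 2481–3971 CPM. Fibroblast markers had medians of 36116, 23387, 50185 and 39644 CPM in the same order. Medians of other cell types were also lower in AVFs: 1454, 378, 265 and 246 CPM for adipocyte markers, 318, 39.8, 46.9 and 68.6 CPM for mast cell markers, and 212, 46.9, 69.7 and 96.0 CPM for dendritic cell markers. The part of the content of any of these cells in either difference was not tested.

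*Il11ra1*, which encodes the interleukin 11 binding chain, had its lowest levels in early AVFs and its highest in late ones. Contralateral veins ranged from 144 to 317 CPM with a median of 218, and early AVFs from 43.5 to 168 CPM with a median of 125. Mid AVFs had 240.3, 258, 283, 275 and 241 CPM, and late AVFs 235, 359, 337, 243 and 277 CPM. All mid and late AVFs were above all early AVFs, which was so for 3.31% and 7.16% of tested genes, and only contralateral library 35 fell within the early range. Fibroblast markers moved with it: 3 of 8 were called lower between contralateral veins and early AVFs, and 2 of 8 higher between early and late AVFs, with sums of 16575–42908 CPM in contralateral veins, 3422–38137 CPM in early, 36531–57152 CPM in mid and 32351–69276 CPM in late AVFs. The lowest early sums were in libraries 7, 6 and 5, where *Il11ra1* had 43.5, 105 and 83.1 CPM. Early library 3, with a higher sum of 21183 CPM, had 74.6 CPM of *Il11ra1*. The part of fibroblast content was not tested.

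The early difference of *Il11ra1* from contralateral veins was −0.93 ± 0.23 on the log2 scale (adjusted p = 0.00475, edgeR), short of 2-fold and so not called; without contralateral 35 (−1.09, adjusted p = 0.00178) or early 10 (−1.08, adjusted p = 0.00222) it was called. Late AVFs were higher than early ones by 1.30 ± 0.25 (adjusted p = 0.00354, edgeR), a call lost without late 16 (adjusted p = 0.0125), 17 (0.0162), 19 (0.013) or 24 (0.0128) and without early libraries 5 and 6 together (1.20, adjusted p = 0.0152, edgeR). Mid AVFs were higher than early ones by 1.13 ± 0.25 (adjusted p = 0.0134, edgeR), and were called without early 1 (0.00824), 2 (0.00933), 4 (0.00887) or 10 (0.00578). Calls over all genes moved with these fits, from 381 to between 32 and 38 without 1 of the 4 late libraries, and from 1 to between 177 and 306 without 1 of the 4 early ones. *Il11ra1* has a near-identical copy, *Il11ra2*, which had no count here, so reads of the pair could not be told apart with certainty.

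*Osmr* and *Il6ra* passed no test with all libraries. *Osmr*, the oncostatin M receptor chain, had means of 102 ± 79.6, 79.2 ± 16.5, 105 ± 11.5 and 103 ± 5.52 CPM (SD, n = 7, 8, 5 and 5) in the order contralateral, early, mid, late. Its contralateral spread came from libraries 34, at 1.95 CPM, and 35, at 266 CPM, while the other 5 lay between 80.5 and 105 CPM. Without the 4 contralateral libraries with most genes at 0 its early difference was −0.91 (adjusted p = 0.00763, edgeR), under 2-fold. *Il6ra*, the IL-6 binding chain, had means of 43.2 ± 29.5, 40.9 ± 18.0, 27.1 ± 9.61 and 31.8 ± 3.77 CPM. Its early difference was −0.08 ± 0.40 (adjusted p = 0.918, edgeR), and it became 1.32 (adjusted p = 0.0137, edgeR) without the 4 contralateral libraries with most genes at 0, 3 of which held the highest *Il6ra* values among veins (85.0, 76.5 and 52.5 CPM).

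*Socs3*, the feedback inhibitor, was more even among AVFs than among veins. Contralateral veins ranged from 0.125 to 93.4 CPM with a median of 20.1, and early AVFs from 34.5 to 79.7 CPM with a median of 51.7. Mid AVFs had 53.5, 61.7, 59.4, 83.5 and 60.9 CPM, and late AVFs 37.0, 49.2, 50.6, 39.0 and 44.9 CPM. Contralateral library 632, at 93.4 CPM, lay above all AVFs and library 633 within their range, while the other 5 veins lay below all AVFs; 632 and 633 were the 2 male veins and the other 5 female. The early difference was 0.99 ± 0.59 (adjusted p = 0.249, edgeR), the mid difference 1.22 ± 0.65 (adjusted p = 0.243, edgeR) and the late difference 0.69 ± 0.65 (adjusted p = 0.562, edgeR). All late AVFs lay below all mid AVFs, as 1.06% of tested genes did, but the difference of −0.53 ± 0.71 did not pass (adjusted p = 1, edgeR), and 0% of genes were called between these stages.

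**Figure D3:**
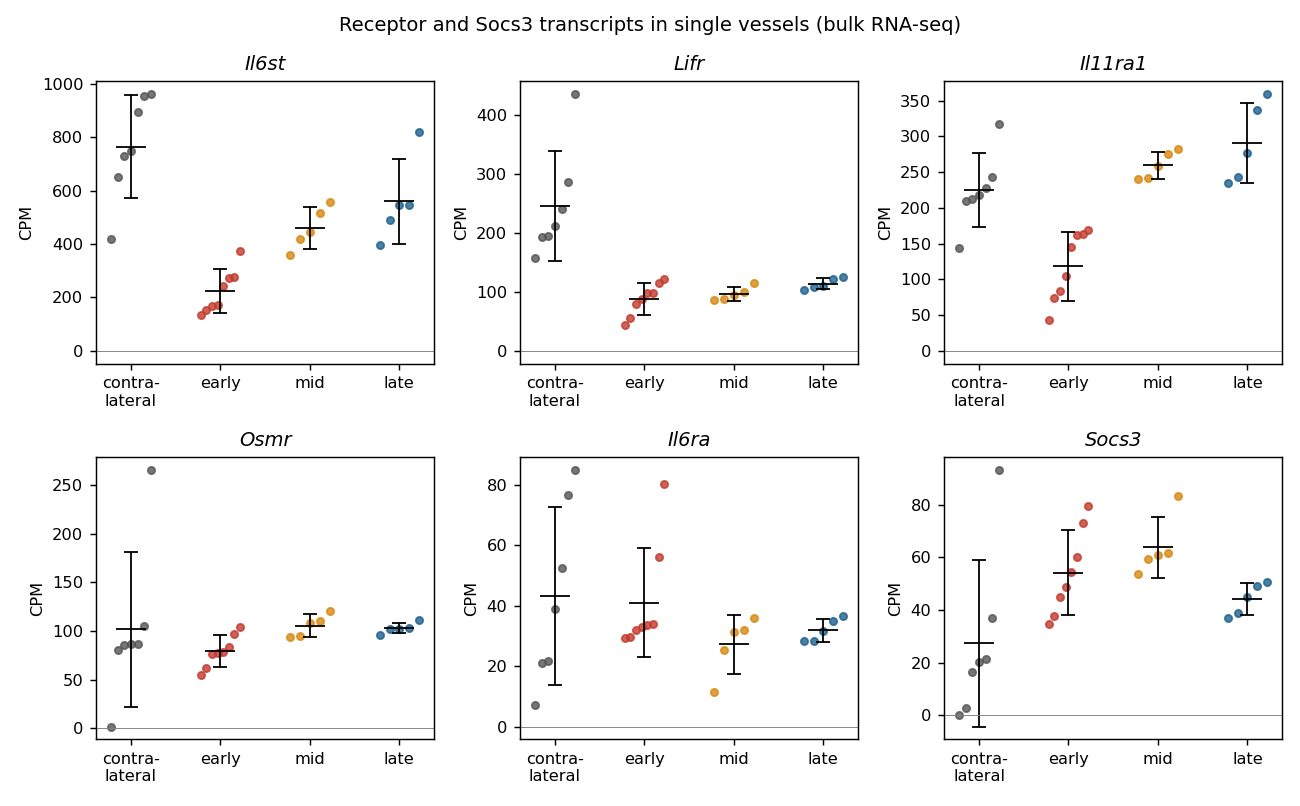
CPM of the 5 receptor chains and *Socs3* in each bulk library by group, from 0; points are libraries and the bar is the mean ± SD. Early AVFs lie below all contralateral veins for *Il6st* and *Lifr*, *Il6st* and *Il11ra1* are higher again in late AVFs, and contralateral libraries 34 and 35 bound the spread of *Osmr*.

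The AVF effect was not called as different between sexes for any tested member in edgeR's interaction test. The lowest adjusted p was that of *Socs3* in early AVFs (0.446, unadjusted p = 0.0236), with a male-minus-female difference of −2.69 on the log2 scale.

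Of 12 other ligands and receptors of the family, 5 passed the filter. *Il31ra*, a receptor chain for interleukin 31, fell in early AVFs by 5.85 on the log2 scale (adjusted p = 0.000671, edgeR), from a mean of 12.9 to 0.216 CPM, and the groups overlapped. *Clcf1* and *Ebi3*, which encode further family cytokine subunits, had early log2 differences of 2.13 (adjusted p = 0.139) and 2.59 (adjusted p = 0.0834, edgeR) and did not pass. No gene of this list was called in mid or late AVFs against contralateral veins. With 5 genes tested, 1 call at the early stage and 0 later are to be read against the 6.45% of all genes called lower early and the 6.05% and 5.33% called either way later; the list medians were 0.38, 1.16 and 1.39.

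Of 19 negative regulators and sheddases, 1 was called higher in early AVFs, where 6.17% of all tested genes were: *Ptpn6*, a leukocyte phosphatase (2.21, adjusted p = 0.00268, edgeR); *Adam17*, which releases soluble IL-6 receptor, did not pass (0.34, adjusted p = 0.443, edgeR). The median log2 difference of this list in early AVFs was −0.17, beside −0.01 over all tested genes.

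Among 28 genes known to respond to STAT3, 6 rose and 2 fell in early AVFs, where 6.17% of all tested genes were called higher and 6.45% lower. The list medians at the 3 stages were 0.75, 0.34 and −0.19, beside −0.01, −0.10 and −0.09 over all genes. The 4 that rose with no overlap between groups, as 4.47% of tested genes lay above, were *Il1rn*, the interleukin 1 receptor antagonist (9.01, adjusted p = 6.43e-10), *Ccl2*, a monocyte chemokine (5.20, adjusted p = 9.03e-06), *Timp1*, a metalloproteinase inhibitor (4.55, adjusted p = 1.57e-08), and *Cd14*, a lipopolysaccharide co-receptor (3.26, adjusted p = 0.000711, edgeR). *Hp*, haptoglobin, and *Hif1a*, the hypoxia-inducible factor, also rose, by 2.95 and 1.08 (adjusted p = 0.000614 and 0.00136, edgeR). *Lbp*, the lipopolysaccharide binding protein, fell by 1.57 (adjusted p = 0.00137), and *Steap4*, a metalloreductase, fell by 1.39 (adjusted p = 0.00909, edgeR).

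In mid and in late AVFs 2 of the 28 were higher than in contralateral veins, *Il1rn* (8.33 and 7.42) and *Timp1* (2.36 and 2.12), and *Lrg1*, a leucine-rich glycoprotein, was lower (−2.09 and −2.45); of all tested genes 2.74% and 2.49% were called higher and 3.31% and 2.85% lower. *Timp1* was lower in late than in early AVFs (−2.42, adjusted p = 0.00241, edgeR). Several genes of the list are also expressed by macrophages. Against contralateral veins, 7 of 9 monocyte/macrophage markers were called higher in early AVFs, 1 in mid and 1 in late AVFs. From early to late AVFs none was called higher and 1 was called lower. The part of cell content was not tested.

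Across the 25 bulk libraries the genes most like each member, by Pearson correlation of log2 CPM, differed between ligands and receptors. For *Osm* they were *Cd69* (r = 0.976), *Gpr35* (0.969) and *Il1rn* (0.968), and for *Il6* they were *Treml1* (0.970), *Acot8* (0.964) and *Polg2* (0.960). *Il6st* was followed most closely by *Podn* (0.934), *Pdgfd* (0.928) and *Lamb2* (0.928), *Il11ra1* by *Col14a1* (0.927), *Islr* (0.915) and *Fbln1* (0.892), and *Lifr* by *Myrip* (0.901). Among the members, the highest values were between ligands, *Lif* and *Osm* (0.810), *Il6* and *Osm* (0.758) and *Il6* and *Lif* (0.752), followed by *Il6st* with *Il11ra1* (0.737) and *Lifr* (0.708). The lowest was that of *Osm* with *Lifr* (−0.724), and *Il6st* had −0.653 with *Osm* and −0.645 with *Il6*. The points share libraries and their depth, zeros in contralateral veins included, and the values are descriptions.

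In the single-cell libraries the members were divided between lineages. Levels are given as UMI CPM, the UMIs of a gene relative to all UMIs of a lineage in the unit of the bulk CPM, with an exact 95% Poisson interval that covers counting error only; there is 1 library per condition and no test between conditions. Lineages were named from marker genes, without the members; fibroblasts numbered 1858, 409 and 1958 cells in contralateral veins, early and late AVFs, monocyte/macrophages 635, 1914 and 1663, neutrophils 64, 781 and 284, endothelial cells 815, 67 and 75, and smooth muscle cells and pericytes 47, 272 and 558. Different clusters held most of the fibroblasts and of the monocyte/macrophages of veins and AVFs, clusters 2 and 12 in veins against clusters 4, 5, 0 and 1 in AVFs, so that values within these lineages compare different populations. Erythroid cells, which should lack these cytokines, gave the background.

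*Il6* UMIs came mainly from fibroblasts, which held 84.8%, 79.5% and 91.6% of them in contralateral veins, early and late AVFs. Their level was 97.0 UMI CPM (91.7–103) in veins, 389 (378–400.3) in early and 785 (777–793) in late AVFs. Fibroblast cluster 5, which all 3 libraries share, had 272, 392 and 438 UMI CPM, from only 283, 48 and 902 of these fibroblasts. Erythroid cells had 4.07 UMI CPM in veins and 4.92 in early AVFs; late AVFs held too few for a background, and there T and NK cells had 39.6 (33.9–46.0) and 69 platelets 131 (60.1–249), from 9 UMIs. Monocyte/macrophages had 5.07, 28.1 and 78.8 UMI CPM, the last above late T and NK cells and smooth muscle cells and pericytes (50.4, 46.6–54.5) but within the wide interval of the late platelets. In the late library it was 109 (103–115) in macrophage cluster 0 and 45.4 (41.6–49.5) in cluster 1, the latter overlapping with T and NK cells. With each cell thinned to 1000 UMIs, which left 1570 of 1858, 409 of 409 and 1957 of 1958 fibroblasts, 4.78%, 21.3% and 31.2% of fibroblasts held an *Il6* UMI (12.8%, 60.1% and 72.9% unthinned, at median depths of 4392, 31843 and 25064 UMIs), against 0.607% and 1.61% of erythroid cells in veins and early AVFs (1.42% and 2.36% unthinned, at 2703 and 4323 UMIs) and 4.63% of T and NK cells in late AVFs (19.9% unthinned, at 6458 UMIs). The 64 neutrophils of veins had 335 *Il6* UMI CPM (263–420.2), but from 74 UMIs in 5 cells.

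*Osm* was held by myeloid cells. Neutrophils had 1755 UMI CPM (1585–1938) in veins, 272 (254–290.1) in early and 295 (262–330.1) in late AVFs, and monocyte/macrophages 88.9 (79.1–99.6), 286 (280.3–293) and 140 (135–144). Within macrophage cluster 1, which all 3 libraries share, the levels were 166 (134–202), 204 (196–213) and 140 (133–147), so that late AVFs did not lie above veins there. Fibroblasts had 2.24, 3.88 and 1.79 UMI CPM, beside 3.73 and 6.56 in erythroid cells of veins and early AVFs, a level of background. Monocyte/macrophages held 34.7% of all *Osm* UMIs in veins, 82.5% in early and 80.1% in late AVFs.

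*Lif* in veins came mainly from T and NK cells, with 325 UMI CPM (305–347) and 76.3% of its UMIs, found in 98 of 634 such cells. In early and late AVFs T and NK cells had 14.9 and 12.9 UMI CPM. In early AVFs monocyte/macrophages held 71.1% of *Lif* UMIs, at 41.7 UMI CPM (39.4–44.2), and fibroblasts had 28.7 (25.7–31.9); in late AVFs fibroblasts held 63.9%, at 15.9 UMI CPM (14.8–17.0), and monocyte/macrophages 26.6%. Erythroid cells had 2.38 UMI CPM in veins and 1.64 in early AVFs. In late AVFs, where erythroid cells were too few, smooth muscle cells and pericytes had 1.17 (0.652–1.92), below fibroblasts and monocyte/macrophages. Late T and NK cluster 6 had 13.7 (10.3–17.8) and late endothelial cells 11.7 (4.30–25.5), from 6 UMIs. Both intervals overlapped with that of late fibroblasts. The *Lif* level of late fibroblasts was therefore above that of smooth muscle cells and pericytes but not told apart from these other levels. T and NK cells held most *Lif* UMIs in veins, so they give no background for *Lif*. *Il11* was near the detection limit in every lineage; fibroblasts had the most UMIs, with 24, 41 and 256 of 33, 51 and 293 in the 3 libraries, or 1.85, 3.54 and 5.14 UMI CPM.

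**Figure D4:**
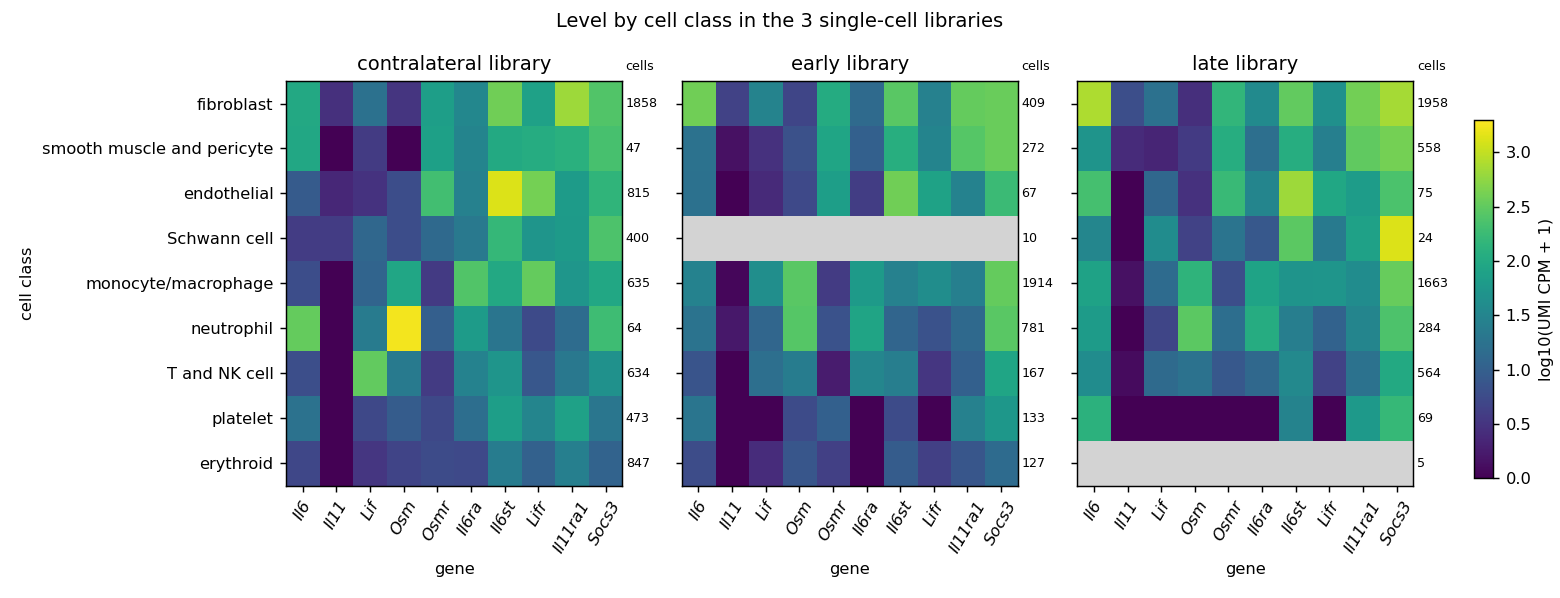
Heat map of UMI CPM (log10 of the value plus 1) of each member by lineage and library, with the number of cells per class on the right and classes under 20 cells in grey. *Il6* is brightest in fibroblasts of AVFs, *Osm* in neutrophils and monocyte/macrophages, *Il6st* and *Lifr* in endothelial cells, and *Il11ra1* in fibroblasts.

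*Il6st* was detected in all vessel wall lineages and was highest in endothelial cells, at 1349 UMI CPM (1307–1391) in veins, 386 (341–436) in early and 657 (589–731) in late AVFs. With cells thinned to 1000 UMIs, fibroblasts had the largest share of cells with an *Il6st* UMI in early AVFs instead. Fibroblasts had 382, 282 and 321, smooth muscle cells and pericytes 101, 116 and 112, and neutrophils 18.1, 11.1 and 24.6 UMI CPM, the first 2 not told apart from the erythroid 23.1 (17.9–29.3) of veins and 8.20 (2.66–19.1) of early AVFs. Endothelial cells, 815 of the cells in veins but 67 and 75 in AVFs, held 40.6% of *Il6st* UMIs in veins, 5.01% in early and 1.71% in late AVFs.

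*Lifr* was likewise highest in endothelial cells, at 401 UMI CPM (379–425) in veins against 77.8 (58.3–102) and 91.7 (67.4–122) in early and late AVFs. By the share of cells thinned to 1000 UMIs, monocyte/macrophages ranked first for *Lifr* in late AVFs instead. Monocyte/macrophages had 327 (308–347) in veins and 40.9 and 51.8 in AVFs; cluster 12, almost all from veins, had 379 (356–403) in veins and 311 (247–388) in 23 cells of early AVFs, intervals that overlapped, and cluster 1, present in all libraries, had 123, 63.6 and 78.9. Fibroblasts had 76.3, 27.5 and 43.9 UMI CPM. Over each of these 3 lineages as a whole the counting intervals of both AVF libraries lay below that of the vein library, with 1 library each.

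*Osmr* UMIs lay mainly in fibroblasts, which held 57.3%, 64.5% and 79.8% of them, followed by endothelial cells in veins (37.2%) and by smooth muscle cells and pericytes in AVFs (23.3% and 15.8%). Fibroblasts held 92.1%, 61.1% and 78.5% of *Il11ra1* UMIs, and *Il6ra* UMIs lay mainly in myeloid cells and fibroblasts. *Osmr* had 199 UMI CPM in endothelial cells of veins (70.5 and 170 in AVFs), 70.2, 105 and 147 in fibroblasts, and 2.69, 2.74 and 5.24 in monocyte/macrophages, near the erythroid 4.75 and 3.28 of veins and early AVFs. In fibroblast cluster 5 alone *Osmr* had 82.7 (72.8–93.6) in veins and 84.0 (68.4–102) in early AVFs, intervals that overlapped, and 123 (118–128) in late AVFs. *Il11ra1* had 660.5 UMI CPM (647–675) in fibroblasts of veins, 326 (315–336) in early and 396 (390.2–401) in late AVFs, and 123, 268 and 314 in smooth muscle cells and pericytes. Within fibroblast cluster 5, which the libraries share, veins had the lowest level instead of the highest, with 371, 441 and 495. That cluster held 283 of 1858, 48 of 409 and 902 of 1958 fibroblasts, so its values cover a part of the lineage. *Il6ra* had 249 UMI CPM (232–266) in monocyte/macrophages of veins, 62.5 in early and 80.6 in late AVFs, and 63.3, 82.5 and 108 in neutrophils.

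*Socs3* was found in every wall and myeloid lineage. Fibroblasts had 251 (242–259), 347 (337–358) and 717 (709–724) UMI CPM, monocyte/macrophages 94.3, 328 and 339, and smooth muscle cells and pericytes 219, 347 and 409, beside 10.2 and 13.1 in erythroid cells of veins and early AVFs. Endothelial cells had 142, 175 and 232 UMI CPM and neutrophils 190.0, 287 and 236, and here the intervals of veins overlapped with those of early endothelial cells (145–209) and late neutrophils (207–268). Within fibroblast cluster 5 the intervals of veins (394, 372–417) and early AVFs (444, 407–483) overlapped, while late AVFs had 727 (715–740). In late AVFs 69 platelets had 161 *Socs3* UMI CPM (80.2–287), from 11 UMIs, and T and NK cells 99.1 (89.9–109), so the late endothelial and neutrophil levels lay above T and NK cells and overlapped with the wide interval of platelets. With cells thinned to 1000 UMIs, 14.6%, 21.0% and 31.2% of fibroblasts and 7.65%, 21.9% and 22.8% of monocyte/macrophages held a *Socs3* UMI.

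*Il6*, *Osm*, *Lif* and *Socs3* stood higher in the single-cell libraries than in bulk RNA, and the receptors and *Il11* lay near or below the bulk level. Summed over all cells, *Il6* had 50.8, 102 and 433 UMI CPM, against mean bulk levels of 1.56, 10.5 and 4.43 CPM in contralateral veins, early and late AVFs, so that late AVFs were above early ones in the cells and had the lower mean in bulk. *Lif* over all cells was lower in AVFs than in veins, with 42.6, 29.6 and 12.6 UMI CPM, while its mean bulk level was higher, with 0.355, 2.67 and 4.36 CPM. The ratio of the single-cell to the bulk level was 32.6, 9.65 and 97.8 for *Il6*, 131, 18.8 and 9.85 for *Osm*, 120.1, 11.1 and 2.88 for *Lif* and 5.85, 5.65 and 11.9 for *Socs3*. For the 5 receptors it lay between 0.354 and 1.42, and for *Il11* between 0.168 and 1.35. The bulk mean of veins rested almost wholly on library 31 for *Il6*, 35 for *Osm* and 633 for *Lif*. Their vein ratios depend on that single library and would be far larger, or undefined, without it. Genes known to be induced when tissue is handled also stood higher in the single-cell libraries, with ratios from 3.47 to 685 over 10 such genes. The ratio climbed from veins to late AVFs for some, such as *Hspa1a*, a heat shock protein (36.6, 383 and 505), and *Atf3*, a stress-responsive transcription factor (7.58, 16.6 and 41.2), and was flat for others, such as the immediate early genes *Ier2* (3.90, 4.03 and 3.47) and *Junb* (13.7, 14.7 and 13.9), while those of *Osm* and *Lif* fell. Bulk counts grow with transcript length and UMIs do not, and the collection days differed, so ratios are read within a gene; the part of digestion at 37 °C for 90 min in the single-cell *Il6* and *Socs3* levels was not tested.

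**Figure D5:**
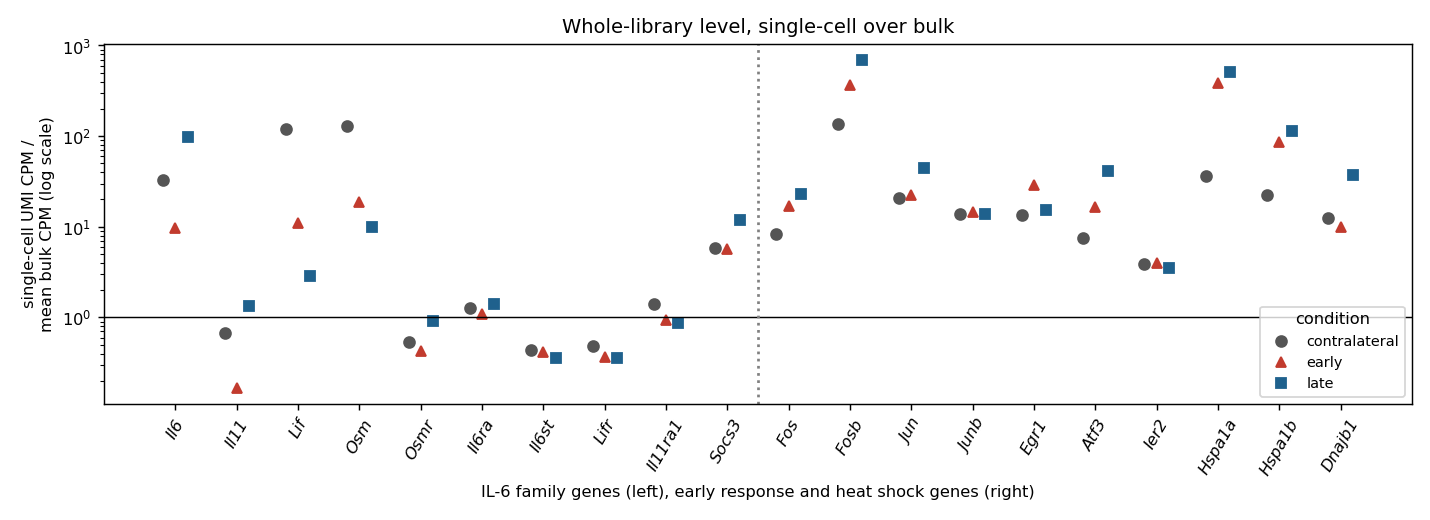
Ratio of UMI CPM over all cells to the mean bulk CPM for each member and for 10 genes induced by tissue handling, on a log axis, for contralateral, early and late libraries. *Il6*, *Osm*, *Lif* and *Socs3* lie above 1 with the handling genes, while the receptors lie between 0.354 and 1.42.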

How the data were processed

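Bulk poly(A) libraries of 25 vessels and 3 single-cell libraries were analysed, with groups from the sample titles. The authors deposited raw counts per gene for bulk samples and UMI counts per gene and cell for single cells; the submitters' processing notes name STAR, Cell Ranger, mm10 and GRCm38, the matrix headers name Cell Ranger 6.0.2, and no tool, strand setting or annotation for the bulk counting is given in the sources used here. Some bulk gene IDs are newer than GENCODE vM21, from which (and from RefSeq GRCm38.p6) coordinates were taken. Symbols came from the single-cell feature list (32210 IDs) or that annotation (19962 IDs); 4808 IDs had none.

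The members and gene lists were chosen with earlier results of these data known. Bulk counts of 12673 genes with a mean normalized count of at least 100 were tested with edgeR 4.0.16 (R 4.3.3; TMM scaling, quasi-likelihood F test, all 25 libraries in 1 fit, Benjamini-Hochberg adjustment over all genes tested), and DESeq2 1.42.0 was an alternative. CPM are TMM-scaled, and the SE is the log2 fold change divided by the square root of F. Over all genes tested the estimated dispersion came to 0.710 (biological coefficient of variation 0.843). The vessels of a group are separate samples, but the labels do not link them to animals, so p-values measure the spread between these vessels. All members are named; of each list reported, genes past the call were named by size, those without overlap between groups first, and genes without a call were chosen after their values were seen. The signal transduction list is not reported here. Alternatives were other scalings, tests and filters, sex as a covariate, female mice only, only the groups compared, each library left out and, chosen after seeing the data, the libraries with most genes at 0 left out.

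Cells were kept if they had between 200 and 6000 detected genes and a mitochondrial share of up to 10%, and were clustered with scanpy 1.11.5 (Python 3.11.15; 12 principal components, 20 neighbours, leidenalg 0.10.2 at resolution 0.5, members and markers left out of the variable genes) into 16 clusters, named from fixed markers; 2 were left unnamed. Called doublets (0, 1 and 98 cells) were kept, and removing them was an alternative. PCR duplicates are collapsed in UMIs but not in bulk counts, so intervals cover counting error only.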

Additional observations from a re-analysis of the deposited data

Results flagged for a closer look

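In 40 groups of member values (10 members by 4 bulk groups), 3 held a library that stood apart. Its gap to its nearest neighbour, measured on log2 CPM, took up more of the group's range than the limit for that group size. Chance gives about 1 in 20 such groups. All 3 were contralateral veins. *Lif* in contralateral library 633 was 2.48 CPM while the other 6 were at 0, so that the gap was 1 of the range. With all others at 0 any count gives this gap, so the chance rate does not apply to it. *Osm* in contralateral library 35 was 1.51 CPM and the next highest 0.0690 CPM, with 5 of 7 veins at 0, a gap of 0.775 of the range on the log2 scale. *Osmr* in contralateral library 34 was 1.95 CPM and the next lowest 80.5 CPM, a gap of 0.756 of the range on the log2 scale. No cause was tested.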

How the results depend on the processing

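No paired analysis was possible because the contralateral and AVF libraries share no replicate numbers. The limits are the uneven contralateral libraries, low counts of the ligands and 1 single-cell library per condition. Of 600 log2 fold changes under other settings, 562 kept their direction and side of the threshold, 17 gained the call, 13 lost it and 8 changed sign. Against contralateral veins, the 3 calls in early AVFs became 1 in female mice (*Il6st*), 2 with only the groups compared (*Osm* lost) and 4 without the 4 contralateral libraries with most genes at 0 (*Il6* gained). In the same order, early calls over all 12673 genes went from 1599 to 368, 665 and 2273. The 2 member calls in mid AVFs became 0 in female mice, 1 with only the groups compared and 1 without the 4 contralateral libraries with most genes at 0. Mid calls over all genes went from 767 to 225, 403 and 1263 in that order. The 1 member call in late AVFs became 2 with DESeq2, with the likelihood ratio test, with the weaker filter and at an adjusted p under 0.05, and 0 in female mice or with only the groups compared. Member calls in mid against early AVFs went from 0 to 2 with DESeq2, the likelihood ratio test and an adjusted p under 0.05. Late against early AVFs went from 2 to 0 in female mice and to 1 without early libraries 5 and 6. When libraries were left out singly, calls ranged from 3 to 4 in early, 1 to 3 in mid and 0 to 1 in late AVFs against contralateral veins, from 0 to 2 in mid against early and from 0 to 2 in late against early AVFs. Calls over all 12673 genes moved too. In late AVFs against contralateral veins they went from 676 to 1294 with DESeq2, 1044 with the likelihood ratio test, 1304 at an adjusted p under 0.05, 279 with only the groups compared and 204 in female mice. In mid against early AVFs they went from 1 to 474, 356 and 482 under the first 3 of these. In late against early AVFs they went from 381 to 87 without early libraries 5 and 6 and to 0 in female mice, where the members' loss therefore says nothing about them. With libraries left out singly they ranged from 1383 to 1816 in early, 534 to 949 in mid and 424 to 886 in late AVFs against contralateral veins, from 0 to 306 in mid against early and from 32 to 557 in late against early AVFs.

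Signs changed only for differences that were not called. *Il11* in late against mid AVFs was −0.081 in female mice. Without the 4 contralateral libraries, *Osmr* was −0.50 in mid and −0.53 in late AVFs, and *Il6ra* was 1.32 at the early, 0.73 at the mid and 0.96 at the late stage; *Il6ra* in early AVFs was also 0.040 with sex as a covariate and 0.063 in female mice. With each library left out, late against mid AVFs ranged from −0.21 to 0.039 for *Il6*, −0.046 to 0.33 for *Il11* and −0.075 to 0.018 for *Osmr*; against contralateral veins *Osmr* ranged from −0.56 to 0.00043 at the early, −0.15 to 0.43 at the mid and −0.19 to 0.41 at the late stage, and *Il6ra* from −0.30 to 0.20 in early AVFs. The causes were not tested. Of 600 single-cell levels, 582 stayed within their counting interval. The lineage with the highest level was kept in 28 of 30 member and library pairs at 20% mitochondrial counts and 29 at resolution 1.0. It was kept in 30 without called doublets and in 22 by thinned shares of cells. Called doublets were 0, 1 and 98 cells in veins, early and late AVFs, so their removal could hardly change veins or early AVFs.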

Other observations

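Further family ligands were seen at low levels. Under the weaker filter the cardiotrophin genes *Ctf1* and *Ctf2* lay above all contralateral veins in every early AVF, with means of 0.668 against 0.0197 CPM and 1.84 against 0.00892 CPM, where 4.64% of the 20076 genes of that filter lay above in the same way. Both vein means lay below the 0.103 to 0.187 CPM that a count of 0 allows in a contralateral library. The veins include the libraries with most tested genes at 0. In the single-cell libraries 24 Schwann cells of late AVFs had 1349 *Socs3* UMI CPM (1217–1491), above the 240.4 (215–268) of 400 Schwann cells in contralateral veins. The 75 endothelial cells of late AVFs had 211 *Il6* UMI CPM (173–254), from 108 UMIs in 23 cells, against 7.74 (4.91–11.6) in 815 endothelial cells of veins. Late T and NK cells had 39.6 (33.9–46.0), below the late endothelial level, while the interval of late platelets (131, 60.1–249), which held 9 UMIs, overlapped with it. The 47 smooth muscle cells and pericytes of veins had 93.0 *Il6* UMI CPM from 34 UMIs in 2 cells.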
